A study of Rattus norvegicus with 44 samples.

Results

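The mRNA levels of 10 genes of the oxidative stress defence were followed in the dentate gyrus (DG), the granule cell region of the hippocampus, of 44 male F344 rats. The genes were chosen by name as the transcription factor NRF2 (Nfe2l2) and its inhibitor Keap1, the NRF2 target enzymes Hmox1, Nqo1 and Gclm, the superoxide dismutases Sod1 and Sod2, and the peroxide-removing enzymes Cat, Gpx1 and Gpx4. They are 10 of 18347 gene identifiers in the deposited table, and all 10 were among the 15598 genes that were abundant enough to be tested. The rats fall into 4 groups with 1 library per rat. Young rats (YNG, n = 10) were 6 months old and are listed as vehicle rats in the authors' sample table. The older rats were 12 months old when treatment began, had reached about 18 months when their tissue was taken, and received vehicle (AV, n = 12), ABT-263 (AA, n = 11) or dasatinib plus quercetin (ADQ, n = 11). ABT-263, an inhibitor of BCL-2 family proteins, was given at 12 mg/kg. Dasatinib, a kinase inhibitor, was given at 1.2 mg/kg together with 12 mg/kg of quercetin, a plant flavonoid. Both treatments were used as senolytics, agents meant to remove senescent cells. Each cycle was 5 days of oral gavage, with 8 cycles before behavioral testing and a final round about 2 weeks before the tissue was taken. All treated and control rats were of the same sex and strain, and the DG came from 1 hemisphere of each rat.

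NRF2 is held in the cytosol by KEAP1, which marks it for destruction by the proteasome. Oxidants and electrophiles modify KEAP1, NRF2 then accumulates, pairs with small MAF proteins and binds antioxidant response elements (AREs) in the genes of detoxifying enzymes. This control acts mainly on the NRF2 protein, so the level of Nfe2l2 mRNA is not a measure of NRF2 activity, and in the brain glial cells carry much of the response. Superoxide is converted to hydrogen peroxide by SOD1 in the cytosol and by SOD2 in mitochondria. Catalase (CAT) and GPX1 remove hydrogen peroxide, while GPX4 reduces lipid hydroperoxides in membranes and is a brake on ferroptosis, an iron-dependent form of cell death.

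Promoter sequences are shown for 5 members: the 3 with a match to the ARE core, and 2 without a match for contrast, of which Sod1 has the largest difference from YNG among the members and Nqo1 is a classical NRF2 target. The sequences are those of RefSeq for the GRCr8 build, which is not the build of the deposited data, and are written 5′ to 3′ on the strand of the gene. Capitals mark the ARE core, TGACNNNGC, read on either strand. In a window from 250 bases before to 50 bases after the start of each gene, this core was found in 12.1% of 33469 promoters, and in 3 of the 9 members with an entry (Nfe2l2, Gclm and Sod2). The AP-1 motif TGANTCA, whose first letters are shared with the core, was found in 7.33% of all promoters and in 0 of the 9 members. An absent match says only that these letters are not in this window. The stretch of Nfe2l2 lies 28 to 49 bases after the start at chr3:81028950-81028971 (minus strand). The other stretches are the 250 bases before the start, at chr2:213031885-213032134 (plus strand) for Gclm, chr1:50050169-50050418 (minus) for Sod2, chr11:42942573-42942822 (plus) for Sod1 and chr19:52220268-52220517 (minus) for Nqo1.
Nfe2l2: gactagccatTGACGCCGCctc
Gclm: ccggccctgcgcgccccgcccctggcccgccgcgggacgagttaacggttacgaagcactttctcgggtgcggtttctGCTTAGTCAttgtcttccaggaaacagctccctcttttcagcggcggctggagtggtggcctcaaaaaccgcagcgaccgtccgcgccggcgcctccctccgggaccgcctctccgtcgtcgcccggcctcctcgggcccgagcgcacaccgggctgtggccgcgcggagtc
Sod2: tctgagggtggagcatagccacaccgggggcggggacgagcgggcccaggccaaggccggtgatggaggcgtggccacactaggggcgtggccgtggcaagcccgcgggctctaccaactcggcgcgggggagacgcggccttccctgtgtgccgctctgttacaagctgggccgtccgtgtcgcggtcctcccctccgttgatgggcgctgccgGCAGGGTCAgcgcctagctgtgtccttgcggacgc
Sod1: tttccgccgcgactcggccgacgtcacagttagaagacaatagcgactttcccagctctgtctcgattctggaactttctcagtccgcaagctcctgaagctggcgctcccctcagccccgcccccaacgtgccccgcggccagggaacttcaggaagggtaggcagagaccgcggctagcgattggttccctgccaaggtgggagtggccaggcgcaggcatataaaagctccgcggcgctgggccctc
Nqo1: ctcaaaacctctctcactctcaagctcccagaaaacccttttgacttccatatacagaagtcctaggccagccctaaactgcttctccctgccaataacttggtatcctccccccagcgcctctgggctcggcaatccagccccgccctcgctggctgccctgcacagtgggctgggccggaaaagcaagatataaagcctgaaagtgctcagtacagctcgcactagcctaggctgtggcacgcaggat
The match of Gclm begins 172 bases before the start and that of Sod2 begins 35 bases before it, both reading as the core on the opposite strand, and the match of Nfe2l2 begins 38 bases after the start. No entry was found for Hmox1.

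Levels are given as normalized values, which are reads per gene scaled between libraries by the median ratio, so they compare a gene between rats but not different genes with each other. Differences are on the scale log2(value + 1). All 4 groups entered the same limma model, and tests were two-sided. A difference was called below the threshold the study used, 0.05 without adjustment, and the p adjusted by Benjamini-Hochberg over all 15598 genes is given as well. The comparisons with YNG share the same YNG rats and those with AV the same AV rats. The estimated depth was between 10166556 and 24328321 reads per rat, and the members had between 61 reads (the lowest Hmox1 library) and 6109 reads (the highest Gpx4 library). Of 9 granule cell markers, Prox1, C1ql2, Dsp, Calb1, Neurod1 and Stxbp6 were detected in all 44 rats, while Lct was at 0 in 17 rats and Pla2g4d and Tdo2 in 28 each. Markers of CA1 pyramidal cells were also present in every rat, and 3 rats had low sums of granule cell markers (3268 and 5743 in the AA rats 4107 and 3996, and 6494 in the AV rat 3989, where the YNG rats had 10050 to 14750). The rats also fall into a lower and a higher series of rat numbers (YNG 6 and 4, AV 6 and 6, AA 5 and 6, ADQ 5 and 6). No label calls these series batches, but they were separated by the share of all values taken by AABR07000398.1 (0.422% to 1.6% in lower numbers, 1.71% to 11.1% in higher numbers). In bulk tissue, fewer cells of a type and less RNA per cell cannot be told apart.

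Sod1 was lower in all 3 older groups than in YNG and Keap1 in both treated older groups, while Hmox1 was higher in AV than in YNG. In AA and ADQ against YNG, age and treatment cannot be told apart. In AV against YNG, 2 of 10 members were called, Hmox1 higher and Sod1 lower, where 21.3% of all tested genes were called (10.6% higher and 10.7% lower). In AA against YNG, 2 of 10 members were called, Keap1 and Sod1, both lower, against 26.6% of all genes (12.6% higher and 14.1% lower). The same 2 members were lower in ADQ than in YNG, against 28.1% of all genes (13.5% higher and 14.6% lower), and over the 3 older groups as a whole Keap1, Sod1 and Gpx4 were lower, against 32.4% (15.7% higher and 16.7% lower). The members' shares against YNG were thus near or below those of all genes. Among the older groups, Nfe2l2 and Hmox1 were lower in ADQ than in AV (2 of 10 members, 9.32% of all genes, 3.42% higher and 5.9% lower). No member was called in AA against AV (4.51% of all genes, 1.4% higher and 3.1% lower) or in AA against ADQ (4.53%, 2.13% higher and 2.4% lower). After adjustment only Sod1 was called, in ADQ against YNG (1 of 10 members, 7.08% of all genes) and over the older groups (1 of 10, 14.9%), while 0 of 10 passed in AV against YNG (2.35% of all genes) and in AA against YNG (3.85%). Against YNG, the median log2 difference of the 10 members was 0.040 for AV, 0.010 for AA and -0.092 for ADQ, and -0.034 for AA and -0.090 for ADQ against AV, with medians of all genes between -0.0017 and 0.0081. For every member, all pairs of groups overlapped.

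**Figure D1:**
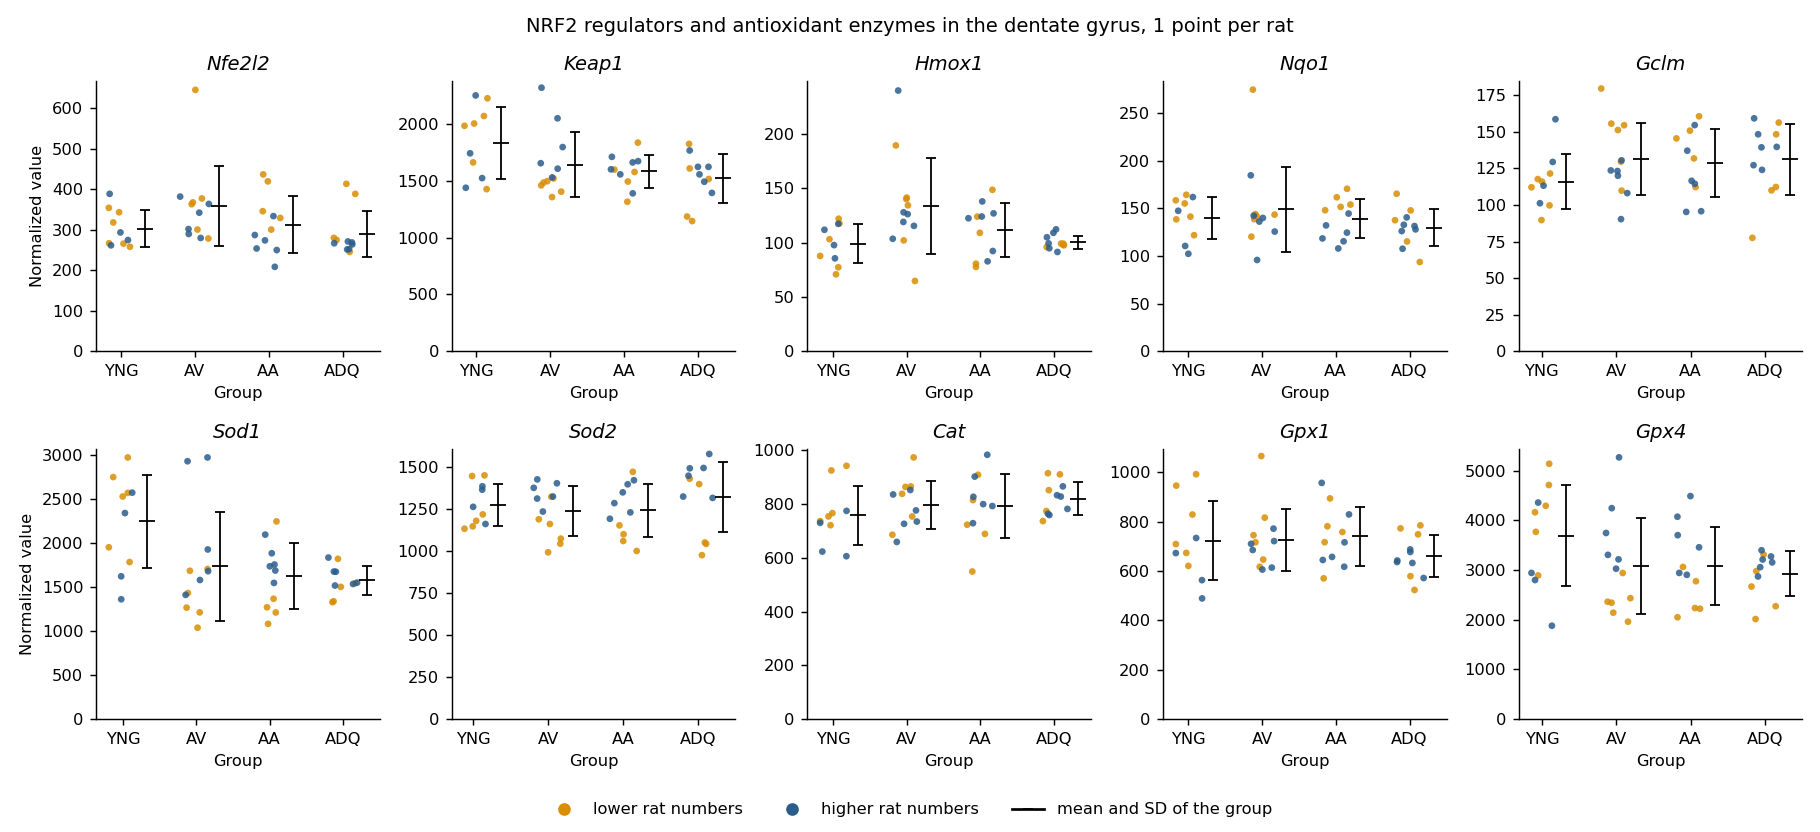
Normalized value of each of the 10 members (vertical axes, starting at 0) in every rat of the YNG, AV, AA and ADQ groups, with points coloured by rat number series and the group mean ± SD. Most YNG rats lie above the ADQ rats for Sod1, and the AV rats spread most widely for Hmox1 and Nfe2l2, with the highest Hmox1 at 240.1 and the highest Nfe2l2 at 645.7.

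**Figure D2:**
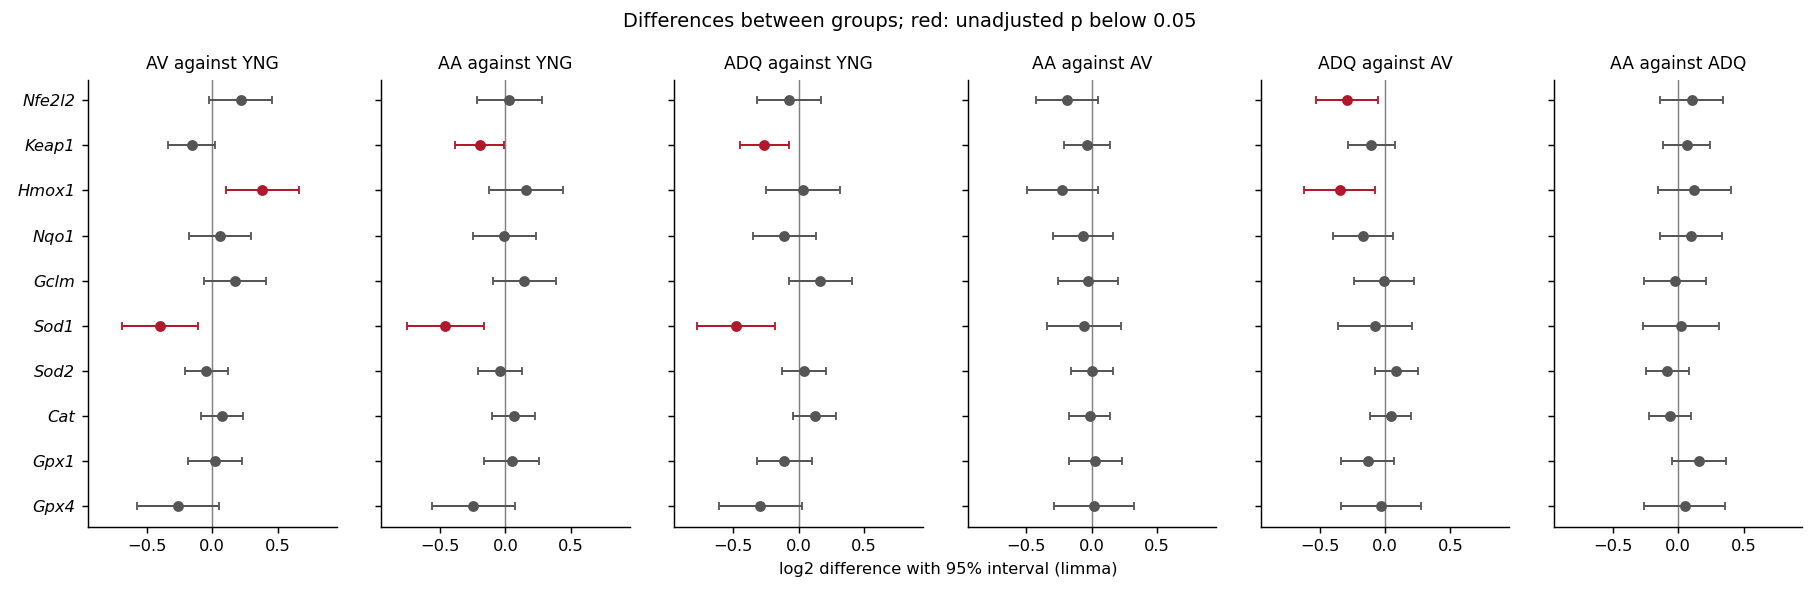
Log2 difference of each member with its 95% interval (horizontal axis) in 6 comparisons, with red marking an unadjusted limma p below 0.05. The intervals of Sod1 lie below 0 in all 3 comparisons with YNG, and those of Nfe2l2 and Hmox1 lie below 0 for ADQ against AV.

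Of the sensor and its target, Keap1 (ENSRNOG00000020878) was lower in the treated older rats and Nfe2l2 (ENSRNOG00000001548) was not called against YNG. The lowest, median and highest normalized values of Keap1 were 1426, 1862 and 2250 in YNG, 1356, 1525 and 2318 in AV, 1315, 1598 and 1835 in AA, and 1145, 1556 and 1824 in ADQ. All 11 AA rats and all 11 ADQ rats were below the YNG median, as were 10 of 12 AV rats, and 5 of 10 YNG rats were above the highest ADQ rat. The log2 difference from YNG was -0.26 ± 0.092 (SE) in ADQ (p = 0.00668, adjusted p = 0.0658), -0.20 ± 0.092 in AA (p = 0.0381, adjusted p = 0.162) and -0.16 ± 0.091 in AV (p = 0.0870), and -0.21 ± 0.076 over the older groups (p = 0.00948, adjusted p = 0.0568). The difference of AA was lost when any of 8 rats was left out (YNG V1, V2, V3, V4 or V9, or AA 3988, 3996 or 4069, the value nearest 0 being -0.16), and with the rats of low granule markers left out it was -0.18 (p = 0.0691). With library totals set equal, which moved the median of all genes by 0.10 to 0.15, Keap1 was called in no group (-0.048 in AA, -0.12 in ADQ and -0.075 over the older groups). Between the older groups the 95% intervals of Keap1 all held 0, with ADQ against AV between -0.28 and 0.074.

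Nfe2l2 ran from 258.2 over a median of 284.2 to 388.9 in YNG, from 278.6 over 352.9 to 645.7 in AV, from 208.6 over 300.6 to 436.9 in AA, and from 245.4 over 268.8 to 413.6 in ADQ. All 12 AV rats were above the ADQ median, and 8 of 11 ADQ rats were below the lowest AV rat. Nfe2l2 was lower in ADQ than in AV, with a log2 difference of -0.29 ± 0.12 (p = 0.0174, adjusted p = 0.436). The AV rat 3989 weighed on this call, since without it the difference was -0.21 (p = 0.0534). In AA against AV the difference was -0.19, with an interval from -0.42 to 0.050, and the 2 treated groups did not differ beyond their spread (0.10, p = 0.394). Compared with YNG, the AV rats had a log2 difference of 0.22 ± 0.12 (p = 0.0793), with 10 of 12 AV rats above the YNG median. This difference was called with upper quartile scaling (0.25, p = 0.0410), equal library totals (0.32, p = 0.0106) and the number series as a covariate (0.24, p = 0.0375). With each rat left out in turn it ran from 0.14 to 0.26, the smallest without the AV rat 3989. Of these fits only that without the YNG rat V12 called it (limma p = 0.0413). It was 0.32 in the lower and 0.11 in the higher numbers.

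Among the inducible NRF2 target enzymes, Hmox1 followed the order YNG, ADQ, AA and AV by group mean, and Nqo1 and Gclm were not called in any comparison. Hmox1 (ENSRNOG00000014117) encodes heme oxygenase 1, which breaks down heme. Its lowest, median and highest values were 70.89, 100.5 and 122.1 in YNG, 64.79, 127.1 and 240.1 in AV, 77.67, 122.5 and 148.7 in AA, and 91.46, 99.1 and 112.3 in ADQ. In AV, 11 of 12 rats were above the YNG median and 7 above the highest YNG rat, while all 11 ADQ rats were below the AV median and 9 of 12 AV rats were above the highest ADQ rat. Hmox1 was higher in AV than in YNG by 0.38 ± 0.14 on the log2 scale (p = 0.00835, adjusted p = 0.114) and lower in ADQ than in AV (-0.35 ± 0.14, p = 0.0134, adjusted p = 0.423). Neither call was lost when any rat was left out, with ranges of 0.30 to 0.47 and -0.44 to -0.27. The AA rats lay between, at 0.16 from YNG (p = 0.273, or 0.31 and p = 0.0275 with equal library totals) and -0.23 from AV (p = 0.103, interval -0.50 to 0.047), and the interval of AA against ADQ ran from -0.16 to 0.40. The AA difference from AV reached -0.31 (p = 0.0151) without the AV rat 4010, whose Hmox1 was the lowest of its group. ADQ and YNG differed by 0.035, with p = 0.808.

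Some markers of other cell types moved with Hmox1 and Nfe2l2. In AV against YNG, where 10.6% of all genes were called higher, the markers called higher were 4 of 5 for endothelial cells, 6 of 7 for oligodendrocytes, 2 of 7 for microglia, 2 of 7 for astrocytes and 1 of 5 for red blood cells. In ADQ against AV, where 5.9% of all genes were called lower, they were 3 of 5, 4 of 7, 5 of 7, 1 of 7 and 5 of 5 in the same order, all lower. The summed endothelial markers were 1426 to 4449 in YNG, 2270 to 8450 in AV, 2344 to 3619 in AA and 2159 to 2909 in ADQ. The microglial sums were 3332 to 5894, 4028 to 7897, 3685 to 6276 and 3527 to 4899 in the same order, and the red blood cell sums were 2369 to 26500, 3681 to 91040, 3771 to 26770 and 3327 to 13920. The AV median of the sums was above that of YNG for endothelial markers (3094 against 2201). It was below that of YNG for microglial (4854 against 5096) and red blood cell markers (10820 against 12470). The part of these markers in the differences of Hmox1 and Nfe2l2 was not tested.

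Nqo1 (ENSRNOG00000012772), a quinone reductase, had lowest, median and highest values of 102.3, 144.4 and 164.2 in YNG, 95.8, 140.7 and 274.5 in AV, 107.9, 144.5 and 170.5 in AA, and 93.65, 131.4 and 165.3 in ADQ. Its AV median was below that of YNG, and its higher AV mean came with 2 AV rats above the highest YNG rat, of which 3989 was the highest. The interval for AV against YNG ran from -0.18 to 0.30, and that for ADQ against AV from -0.40 to 0.063. Gclm (ENSRNOG00000013409), the modifier subunit of the enzyme that limits glutathione synthesis, ran from 89.66 over 114.6 to 158.6 in YNG, from 90.32 over 126.6 to 179.6 in AV, from 95.25 over 131.8 to 160.6 in AA, and from 77.52 over 139.4 to 159.2 in ADQ. The older medians of Gclm were all above that of YNG, with 9 of 12 AV, 7 of 11 AA and 8 of 11 ADQ rats above it. Against YNG it differed by 0.17 (AV), 0.14 (AA) and 0.17 (ADQ), with SEs of 0.12, and over the older groups 0.16 (p = 0.111). With library totals set equal in place of the median ratio, all 3 of these were called (0.27, 0.29 and 0.31).

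Of the superoxide dismutases, Sod1 was lower in all 3 older groups and Sod2 was not called. Sod1 (ENSRNOG00000002115) ran from 1363 over a median of 2437 to 2975 in YNG, from 1040 over 1632 to 2975 in AV, from 1084 over 1690 to 2248 in AA, and from 1330 over 1545 to 1837 in ADQ. All 11 AA and all 11 ADQ rats and 10 of 12 AV rats were below the YNG median, and 7 of 10 YNG rats were above the highest ADQ rat. The highest AV rats, 4567 and 4572, reached 2975 and 2932 and stood among the high YNG rats. The log2 differences from YNG were -0.40 ± 0.14 in AV (p = 0.00783, adjusted p = 0.112), -0.46 ± 0.15 in AA (p = 0.00315, adjusted p = 0.0577) and -0.48 ± 0.15 in ADQ (p = 0.00220, adjusted p = 0.0402). Over the older groups the difference was -0.45 ± 0.12 (p = 0.000616, adjusted p = 0.0157). No rat left out ended any of these 4 calls, with values from -0.55 to -0.34, but none was called among the rats of higher numbers alone. The treated groups and AV did not differ beyond their spread, with intervals from -0.34 to 0.23 for AA and from -0.36 to 0.21 for ADQ. The step from AV to YNG in Sod1 was the only pair of neighbours in the order of group means, over all 10 members, with an unadjusted p under the threshold.

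Sod2 (ENSRNOG00000019048) had lowest, median and highest values of 1132, 1240 and 1449 in YNG, 991.7, 1272 and 1425 in AV, 999.7, 1229 and 1470 in AA, and 974.7, 1397 and 1576 in ADQ. The groups shared nearly the whole range, and 5 of 11 ADQ rats were above the highest AV rat. The largest of its differences was ADQ against AV, at 0.087 with an interval from -0.075 to 0.25. With equal library totals, Sod2 in ADQ against YNG was called (0.18, p = 0.0479). Its highest group mean was 1.07 times its lowest, against 1.43 times for Sod1.

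Of the peroxide-removing enzymes, Gpx4 was lower over the older groups, though not in the higher rat numbers alone. Cat and Gpx1 were not called. Gpx4 (ENSRNOG00000013604) ran from 1879 over a median of 3964 to 5136 in YNG, from 1960 over 2983 to 5265 in AV, from 2050 over 2941 to 4486 in AA, and from 2014 over 3057 to 3397 in ADQ. All 11 ADQ rats, 10 of 12 AV rats and 9 of 11 AA rats were below the YNG median. The difference over the older groups was -0.27 ± 0.13 (p = 0.0453, adjusted p = 0.145) and was lost 18 times when each of the 44 rats was left out in turn, with values from -0.37 to -0.21. With upper quartile scaling it was -0.24 (p = 0.0613) and with equal library totals -0.14 (p = 0.228). In the lower rat numbers it was -0.73 and in the higher 0.28, the opposite direction (limma interaction p = 6.239e-06, adjusted p = 0.00250). The 18 rats were 6 YNG rats (V1, V2, V3, V4, V6 and V9), 5 AV rats (3890, 3999, 4009, 4010 and 4011), 4 AA rats (3983, 3984, 3988 and 3996) and 3 ADQ rats (4005, 4006 and 4007). The single groups differed from YNG by -0.26 in AV (p = 0.0962), -0.25 in AA (p = 0.127) and -0.29 in ADQ (p = 0.0688). ADQ was called with the number series as a covariate (-0.33, p = 0.0296) and with the compared groups fitted alone (-0.29, p = 0.0480). Gpx4 had 4 rows in the table, of which the largest held 96.9% of its values.

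Cat (ENSRNOG00000008364) ran from 606.1 over a median of 745.4 to 942.2 in YNG, from 659.1 over 806.1 to 973.5 in AV, from 549.1 over 799.7 to 983.3 in AA, and from 736.7 over 827.9 to 914.7 in ADQ. In ADQ, 10 of 11 rats were above the YNG median, and the difference from YNG was 0.12 ± 0.081 (p = 0.139). With equal library totals it was called, at 0.26 in ADQ (p = 0.00919) and 0.21 in AA (p = 0.0349). Gpx1 (ENSRNOG00000048812) ran from 488.8 over 690.8 to 991.6 in YNG, from 605.6 over 712.9 to 1065 in AV, from 570 over 716.4 to 956.4 in AA, and from 523.1 over 642.2 to 784.5 in ADQ. The ADQ group was the lowest of Gpx1 by mean, at 0.16 ± 0.10 below AA (p = 0.124). With the 3 rats of low granule markers left out, the difference of AA against ADQ was 0.22 (p = 0.0332).

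The spread between rats differed between the groups. In YNG, AV, AA and ADQ, respectively, the coefficient of variation of Hmox1 was 18.3%, 33.3%, 22.1% and 6.19%, and that of Sod1 was 23.7%, 35.5%, 22.8% and 10.6%. Gpx4 varied by 27.7%, 31.4%, 25.4% and 15.2%. The AV rats were the most variable group for these 3 members, although Gpx4 fell to 24.7% without the AV rat 4572. The AV values of Nfe2l2 (27.6%) and Nqo1 (29.8%) rested on the rat 3989, since without it they were 12.5% and 15.5%, near or below those of YNG (15.2% and 15.6%). That of Gpx1 went from 17.3% to 9.9% without the same rat. Sod2 and Cat had the lowest values in YNG at 9.87% and 14.3%. The differences in spread were not tested.

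For Gpx4 in every older group, Sod1 in AV and AA, and Keap1 in AV, the difference from YNG depended on the series of rat numbers. Animals and libraries differ together between the series and cannot be told apart. In the lower numbers, Gpx4 was 4159 ± 779 (SD, n = 6) in YNG and 2364 ± 332 (n = 6) in AV. In the higher numbers it was 2994 ± 1020 (n = 4) and 3799 ± 841 (n = 6), the opposite direction. The log2 difference of AV against YNG was thus -0.80 in the lower and 0.38 in the higher numbers, and limma's interaction term, the test of the difference between these values, gave 1.18 ± 0.23 (p = 7.325e-06, adjusted p = 0.00423). Such terms were called for 21.8% of all genes in this comparison. For Sod1 in AV against YNG the values were -0.80 and 0.063 (p = 0.00163, adjusted p = 0.0428), and for Keap1 they were -0.37 and 0.077 (p = 0.0129, adjusted p = 0.116). Sod1 over all older groups was -0.75 in the lower and -0.091 in the higher numbers (p = 0.00390, adjusted p = 0.0679), and by group its differences in the higher numbers alone were 0.063 in AV (p = 0.744), -0.10 in AA (p = 0.587) and -0.23 for ADQ (p = 0.235). For Sod1 in ADQ against YNG they were -0.67 and -0.23, and the interaction term was not called (p = 0.0987, adjusted p = 0.651). For Keap1 over the older groups the values were -0.34 and -0.050 (p = 0.0503). The values of Hmox1 were near each other in both series. Its AV difference from YNG was 0.37 in each (p = 0.0940 and 0.0603 within the smaller samples), and ADQ against AV was -0.32 (p = 0.165) and -0.38. Nfe2l2 in ADQ against AV was -0.25 (p = 0.178) and -0.31. Cat was above YNG within the higher numbers alone, by 0.30 in AA (p = 0.00578) and 0.24 in ADQ (p = 0.0205).

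**Figure D3:**
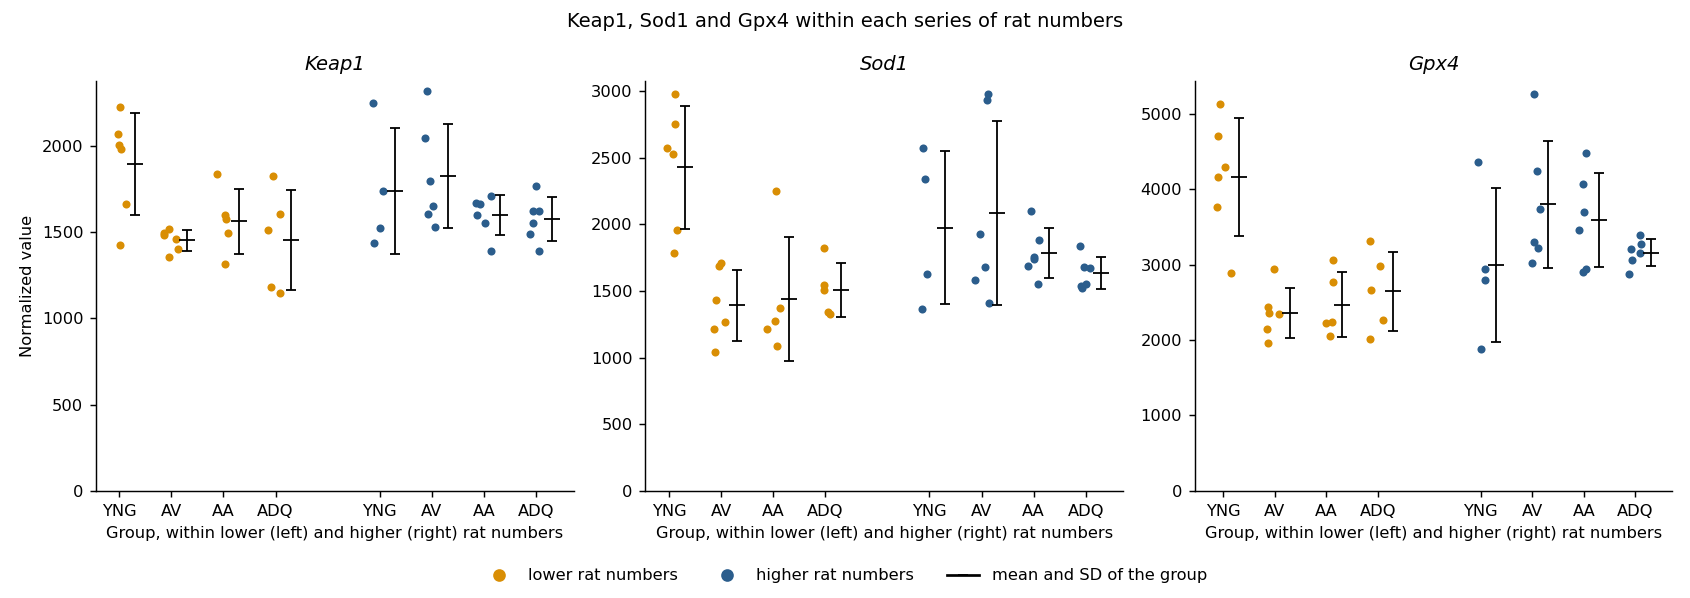
Normalized values of Keap1, Sod1 and Gpx4 (vertical axes) in the 4 groups, drawn apart for rats of lower and higher numbers, with points for rats and bars for mean ± SD. For Gpx4 the YNG mean is above the AV mean in the lower numbers (4159 against 2364) and below it in the higher numbers (2994 against 3799).

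Within groups some pairs of members varied together from rat to rat. How often pairs of all genes do so was not measured, so this is not shown to be particular to the members. Over 44 rats, with the group means subtracted, 8 of 45 pairs had an adjusted permutation p of Pearson's r below 0.05, of which 6 were positive and 2 negative, and 6 passed with Spearman's rho as well. Sod1, Gpx4 and Keap1 varied together, though each was closer to its nearest gene outside the members (r = 0.957, 0.923 and 0.922). Sod1 and Gpx4 had r = 0.799 and rho = 0.795 (permutation p = 1e-05 for each, the smallest that 100000 resamples give; adjusted p = 0.000112 and 0.00015). This r was 0.783 without the 2 rats farthest from the Sod1 median, 0.656 in the lower and 0.737 in the higher numbers. Keap1 had r = 0.791 and rho = 0.804 with Gpx4, and r = 0.756 and rho = 0.776 with Sod1, with the same smallest p. Without the 2 farthest rats these were 0.758 and 0.721, and within the lower and higher numbers 0.826 and 0.803 for Gpx4 and 0.588 and 0.841 for Sod1.

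Nfe2l2 and Nqo1, the factor and a classical target, also varied together, with r = 0.744 (permutation p = 1e-05, adjusted p = 0.000112) and rho = 0.661 (p = 3e-05, adjusted p = 0.000337). Their r was 0.614 without the 2 farthest rats, 0.751 in the lower and 0.698 in the higher numbers. Each was closer to its nearest gene outside the members (r = 0.83 for Nfe2l2 and 0.777 for Nqo1). Gclm ran against Gpx4, with r = -0.486 (permutation p = 0.00079, adjusted p = 0.00711) and rho = -0.536 (adjusted p = 0.00225), -0.496 without the 2 farthest rats and -0.356 and -0.396 within the series. Gclm and Keap1 had r = -0.415 and rho = -0.449 (adjusted permutation p = 0.0379 and 0.0184), with -0.498 in the lower and -0.201 in the higher numbers. The remaining pairs were Gpx1 with Gpx4 (r = 0.454, rho = 0.381) and Nqo1 with Gpx1 (r = 0.444, rho = 0.372), both at an adjusted permutation p of 0.0292 for r and 0.0829 for rho. Within the higher numbers Nqo1 and Gpx1 had r = 0.0997.

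**Figure D4:**
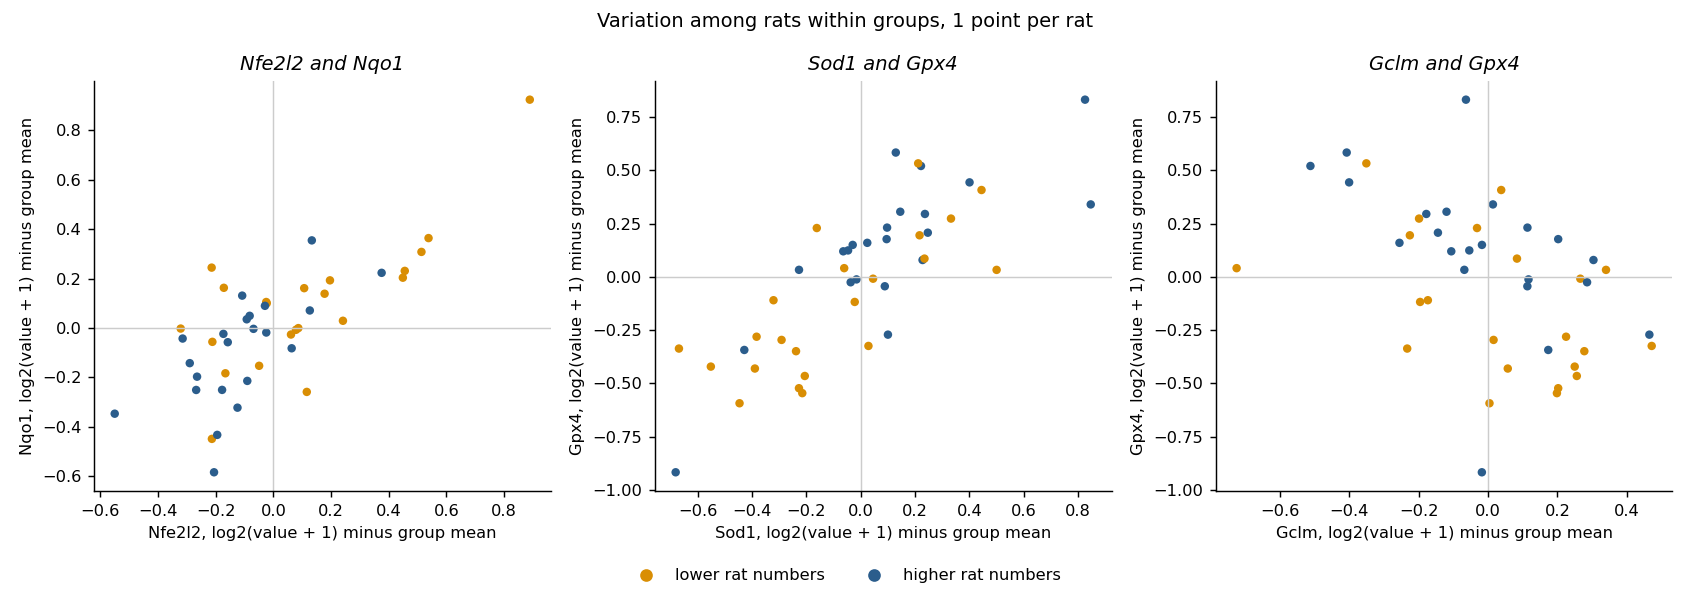
Log2 values with group means subtracted for Nfe2l2 and Nqo1, Sod1 and Gpx4, and Gclm and Gpx4, each point 1 of 44 rats coloured by rat number series, on axes of log2(value + 1) minus the group mean. The points rise together for the first pairs (r = 0.744 and 0.799) and run against each other for Gclm and Gpx4 (r = -0.486).

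The members also varied with markers of cell types. Of 100 relations between a member and a summed marker list, 26 had an adjusted permutation p of r below 0.05, and 20 passed with rho as well, of which 19 were positive. Nfe2l2 and Nqo1 varied with oligodendrocyte markers (r = 0.613 and 0.614, rho = 0.575 and 0.567, adjusted permutation p of r = 0.00133 and 0.001), with r = 0.539 and 0.486 without the 2 farthest rats, 0.573 and 0.576 in the lower and 0.804 and 0.644 in the higher numbers. Hmox1 varied with endothelial markers (r = 0.518, rho = 0.5, adjusted permutation p = 0.0145 and 0.0148), with 0.458 without the 2 farthest rats, 0.537 in the lower and 0.692 in the higher numbers. Gpx4 went with microglial markers (r = 0.647, rho = 0.659, r = 0.673 without the 2 farthest rats, 0.735 and 0.794 within the series). Sod1 went with red blood cell markers (r = 0.635, rho = 0.657, 0.671 without the 2 farthest rats, 0.696 and 0.872 within the series). It went as closely with microglial markers (r = 0.637, rho = 0.71). The relations were thus not particular to 1 cell type. Keap1 and Nqo1 passed with both microglial (r = 0.599 and 0.601) and red blood cell markers (r = 0.593 and 0.587). Nfe2l2 also passed with markers of astrocytes (r = 0.593), meninges (r = 0.572), CA1 pyramidal cells (r = 0.505) and microglia (r = 0.469). It ran against markers of CA3 pyramidal and mossy cells, the only negative relation of the 20. There r was -0.542 and rho -0.42 (adjusted permutation p = 0.00508 and 0.0385). The AV rat 3989, with the highest Nfe2l2 and Nqo1, also had the highest red blood cell sum (91040) and endothelial sum (8450). The part of cell makeup in the differences between groups was not tested.

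Around the members, genes of the wider NRF2 pathway differed from YNG in both directions in the older groups. Of 27 further NRF2 target genes tested, 5 rose and 2 fell in AV against YNG. In AA the numbers were 2 and 8, and in ADQ they were 6 and 7. Of all genes, 10.6% were called higher and 10.7% lower in AV, 12.6% and 14.1% in AA, and 13.5% and 14.6% in ADQ. The median log2 difference of these targets was 0.079 for AV, -0.033 for AA and -0.12 for ADQ. Txnrd1, the cytosolic thioredoxin reductase, was higher over the older groups by 0.39 ± 0.097 (p = 0.000238, adjusted p = 0.0103), and its difference was 0.40 in the lower and 0.40 in the higher numbers. Its lowest, median and highest values were 781, 1081 and 1424 in YNG, 787.5, 1442 and 1814 in AV, 1136, 1515 and 1768 in AA, and 1198, 1491 and 2075 in ADQ, so the groups overlapped but the older medians were all above the highest YNG rat. Taldo1, a transaldolase of the pentose phosphate pathway, was lower by -0.32 ± 0.088 (adjusted p = 0.0182), and so was the biliverdin reductase Blvrb (-0.25 ± 0.074, adjusted p = 0.0235). Both were smaller in the higher numbers, at -0.087 and -0.076.

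Against AV, 0 of the 27 targets were higher and 1 lower in AA, and 0 higher and 4 lower in ADQ, with no call after adjustment. The shares of all genes called lower were 3.1% and 5.9%. The 4 were Abcc4, Ftl1, Mgst1 and Slc48a1. Abcc4, an efflux transporter, ran from 99.24 over a median of 136 to 212.6 in YNG, from 123.6 over 169.1 to 262.2 in AV, from 114.1 over 140.7 to 205.5 in AA and from 104.1 over 149.4 to 178 in ADQ. It was higher in AV than in YNG by 0.44 ± 0.13 (p = 0.00137, adjusted p = 0.0551), with 0.75 in the lower and 0.058 in the higher numbers. It was lower than in AV in both AA (-0.27, p = 0.0405, adjusted p = 0.999) and ADQ (-0.29, p = 0.0247). The AA call was lost without any of 12 rats, with -0.22 without the AV rat 3989. Ftl1, the ferritin light chain, differed by -0.32, and Mgst1, a microsomal glutathione transferase, by -0.29. Slc48a1, a heme transporter, differed by -0.23 (p = 0.0223) and by -0.18 (p = 0.0570) without the AV rat 3989.

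Of 14 genes for NRF2 turnover and partner proteins, 1 rose and 2 fell in AV against YNG, a share near the 21.3% of all genes. The higher gene was Maff, a small MAF partner of NRF2, at 3.008, 15.86 and 26.07 (lowest, median and highest) in YNG, 7.798, 22.9 and 177.3 in AV, 8.031, 16.64 and 36.13 in AA, and 4.171, 13.06 and 24.81 in ADQ. The AV median was above the medians of the other groups but below the highest rat of each, and the highest AV rat was again 3989. Its log2 difference was 1.22 ± 0.37 for AV against YNG (p = 0.00164, adjusted p = 0.0599) and -1.11 ± 0.36 for ADQ against AV (p = 0.00331, adjusted p = 0.266), and 0.99 and -0.87 without 3989. AA against AV was -0.90 (p = 0.0155), and -0.66 (p = 0.0477) without that rat. Within the series, AV against YNG was 1.90 in the lower and 0.49 in the higher numbers. Over the older groups Rbx1, a subunit of the ligase that marks NRF2 for destruction (-0.36 ± 0.10, adjusted p = 0.0193), and Park7, a redox-sensitive chaperone also known as DJ-1 (-0.36 ± 0.11, adjusted p = 0.0320), were lower. In the higher numbers their differences were -0.056 and 0.074.

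The genes with the pattern most like a member, by Pearson's r over 44 rats with group means subtracted, were Maob (0.83) for Nfe2l2, Tubb5 (0.922) for Keap1, Tagln2 (0.676) for Hmox1, P4hb (0.777) for Nqo1, and Ecpas (0.826) for Gclm. For Sod1 the nearest was Atp5pd (0.957), for Gpx1 Lamtor1 (0.809) and for Gpx4 Rabac1 (0.923). Sod2 and Cat were nearest to genes named only by contig, AABR07026654.1 (0.824) and AABR07001099.2 (0.812). These are descriptions chosen from all tested genes, and genes of 1 library share its depth and makeup. Hmox1 had the least similar neighbour of the 10 members and Sod1 the most similar.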

How the data were processed

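RNA of the DG of 1 hemisphere per rat was isolated by the authors, enriched for poly(A) mRNA and sequenced on an Ion platform (the labels and the methods name different Ion sequencers). Per the methods and the submitters' processing notes, the authors aligned the reads to rn6 with STAR 2.5.3a, used Partek Flow for quantification and a median-ratio scaling, excluded genes with few counts and tested with DESeq2. The deposited values are normalized signal, with several entries for some genes. Of the values worth fewer than 20 of a library's smallest increments, 79.7% to 84.1% were whole multiples of that increment to a tolerance of 0.05 reads. The remaining low values were not whole, so whole reads could not be recovered for every gene, and no count model was used. Of the 10 members, 9 (all but Gpx4) had whole values in 42 to 44 rats. Reads shared with near-identical gene copies could not be separated.

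The labels give only age, so treatment was read from the authors' attribute table by rat name. The 24694 rows were summed to 18347 identifiers. The 15598 genes with a mean of at least 5 were fitted as log2(value + 1) by limma 3.58.1 (empirical Bayes with trend) in R 4.3.3 (data.table package 1.17.8). The older mean is the mean of the 3 older group means. Intervals are 95% intervals of the fit. The members were also tested by permutation (100000 resamples), an alternative chosen after seeing the data, as were the relations with marker lists. The members, lists and tests were chosen with earlier results of these data known. Beside members, the text names, from each list and comparison, the 3 genes with the smallest p among those called after adjustment (or the 1 smallest p where none was), and for each member the nearest gene by correlation. Ftl1 and Mgst1 are outside this rule, picked once their values were known, to complete a count. The fit was tested on simulated data. Tables and figures were made in Python 3.11.15 (matplotlib 3.10.9, scipy 1.17.1, pandas 2.3.3, numpy 2.4.6). Alternatives covered scaling, pseudocount, filter on the mean, robust fitting, rat number series, largest row per gene, groups fitted alone, and leaving out rats.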

Additional observations from a re-analysis of the deposited data

Results flagged for a closer look

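Differences of members between groups that were not the same in the lower and in the higher rat numbers are given as higher minus lower on the log2 scale, each with limma's unadjusted p of the interaction term, which was below 0.05 for 4.03% to 21.8% of all genes by comparison. In AV against YNG these were Keap1 at 0.45 (p = 0.0129), Gclm at -0.51 (p = 0.0234), Sod1 at 0.86 (p = 0.00163) and Gpx4 at 1.18 (p = 7.325e-06). In AA against YNG they were Nfe2l2 at -0.46 (p = 0.0481), Sod1 at 0.68 (p = 0.0131), Cat at 0.44 (p = 0.00680) and Gpx4 at 1.05 (p = 5.996e-05, adjusted p = 0.0132). Gpx4 also differed in ADQ against YNG, at 0.79 (p = 0.00174, adjusted p = 0.243). Over the older groups they were Sod1 at 0.66 (p = 0.00390) and Gpx4 at 1.01 (p = 6.239e-06, adjusted p = 0.00250). Among the older groups, the values were 0.32 for Cat in AA against AV (p = 0.0359), 0.57 for Gclm in ADQ against AV (p = 0.00952) and -0.49 for Gclm in AA against ADQ (p = 0.0286), none of which passed after adjustment over all genes.

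Gclm was 109.4 ± 12.2 (SD, n = 6) in YNG and 146.7 ± 24.1 (n = 6) in AV among the lower numbers, and 125.6 ± 24.8 (n = 4) and 116 ± 14.6 (n = 6) among the higher. Cat in AA against YNG was -0.14 in the lower and 0.30 in the higher numbers, and Nfe2l2 was 0.28 and -0.18. The rats' series holds animals and libraries together, which cannot be told apart. Dixon's test for a single extreme rat was run in YNG alone, where it marked no member, and the groups of 11 and 12 rats were not tested. In AV the Nfe2l2 value of rat 3989 was 645.7, and the next highest rat was at 382.1.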

How the results depend on the processing

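A pseudocount of 5, a mean of at least 20, no filter on the mean, robust fitting and the largest row of each gene changed no member's call. An uncalled difference that stayed uncalled was counted as unchanged, whatever its sign. With library totals set equal, 4 members were called in each of AV, AA and ADQ against YNG, beside 22.3%, 33.2% and 33.4% of all genes. The median of all genes moved by 0.10, 0.15 and 0.15, and Keap1 was lost in AA (-0.048) and ADQ (-0.12). The share of higher genes among those called was then 81.1%, 85.3% and 82.7% (49.6%, 47.2% and 48% as reported), 83.1% over the older groups (48.4%), 52.7% in AA against AV (31.2%), 61.9% in AA against ADQ (47%) and 47.8% in ADQ against AV (36.7%). Under upper quartile scaling it was 61.1% in AV against YNG, and 1 member was called in AA against YNG, beside 27.1% of all genes. With lower numbers only, 4 members were called in AV (33.4% of all genes) and 4 in AA (28.6%) against YNG and 0 in ADQ against AV (5.67%). With higher numbers only, 1 was called in AV (Gpx4), ADQ (Cat) and the older groups (Cat) against YNG, beside 6.31%, 6.9% and 8.82% of all genes. The 2 in AA were Cat (0.30) and Gpx1 (0.26, p = 0.0456) in place of Keap1 and Sod1, beside 1928 of 15598 genes. In AA against AV, 1 was called (Nfe2l2, -0.29), beside 4.21% of all genes. Sod1 (0.063) and Gpx4 (0.38) in AV against YNG and Gpx4 over the older groups (0.28) turned direction. Leaving out each rat gave 2 to 4 members called in AV, 1 to 3 in AA, 2 to 3 in ADQ and 2 to 4 over the older groups against YNG, 0 in AA against ADQ, 0 to 1 in AA against AV and 1 to 2 in ADQ against AV. The 4 in AV came without AV 4572 (Keap1 -0.21 and Gpx4 -0.34 added), beside 27.8% of all genes. The fits with 1 member in AA against YNG called 21.3% to 25.9% of all genes. That with 1 member in ADQ against AV, without AV 3989, called 6.89%. Without the 3 rats of low granule markers, an alternative chosen after seeing the data, 1 member was called in AA against YNG (24.6% of all genes) and 1 in AA against ADQ (4.25%). In the permutation test all 8 calls between pairs of groups held, with Benjamini-Hochberg adjusted p (over 60) of at least 0.0798. Only part of the depth of a library falls on Hmox1, Nqo1 and Gclm (61 to 291 reads), which limits small differences. No paired analysis was possible because the groups share no rat numbers.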

Other observations

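Other redox genes that were fixed as lists and are not members moved as follows. Of 15 other superoxide and peroxide enzymes, 2 were higher and 4 lower over the older groups than in YNG, where 32.4% of all genes were called (15.7% higher and 16.7% lower). Prdx6, a peroxiredoxin, was lower (-0.32 ± 0.10, limma adjusted p = 0.0285), and Pon2, a paraoxonase, was higher (0.41 ± 0.15, adjusted p = 0.0491), with 0.76 in the lower and 0.093 in the higher rat numbers. Sod3, the extracellular superoxide dismutase, was lower in ADQ than in AV, the only gene of the 15 called there (-0.39 ± 0.14, p = 0.00724, adjusted p = 0.368), with medians of 415.5 and 521.1. It was -0.51 in the lower and -0.29 in the higher numbers, and -0.32 when the AV rat 3989 was left out. In ADQ against AV, 9.32% of all genes were called (3.42% higher and 5.9% lower).

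Of 14 thioredoxin, glutaredoxin and methionine sulfoxide repair genes, 2 were higher and 4 lower over the older groups, where 32.4% of all genes were called. All 6 passed after adjustment, where 14.9% of all genes did. They include Msrb3, a methionine sulfoxide reductase (0.57 ± 0.14, adjusted p = 0.0110, with 0.66 in the lower and 0.47 in the higher numbers), the mitochondrial thioredoxin Txn2 (-0.25 ± 0.072, adjusted p = 0.0222, -0.43 and -0.026) and Glrx2, a mitochondrial glutaredoxin (-0.36 ± 0.11, adjusted p = 0.0325, -0.63 in the lower numbers and 2e-04 in the higher). Txnip, the thioredoxin inhibitor, had a median of 433.7 in AV, above those of ADQ (369.5), AA (385.3) and YNG (333.3), and was lower in ADQ than in AV (-0.35 ± 0.15, p = 0.0256), a call lost without the AV rat 3989 or 4571. Of the thioredoxin, glutaredoxin and methionine sulfoxide repair genes, 2 were higher and 2 lower in ADQ than in AV. Of all genes, 3.42% were called higher there and 5.9% lower. Of 14 selenoprotein synthesis genes, 2 were higher and 3 lower over the older groups, near the 32.4% of all genes. Lrp8, a receptor that takes up selenoprotein P, was higher (0.36 ± 0.093, adjusted p = 0.0119), with 0.48 in the lower and 0.23 in the higher numbers, and the selenocysteine elongation factor Eefsec was lower (-0.25 ± 0.086, adjusted p = 0.0453, -0.37 and -0.064). Selenot was lower in AA than in ADQ (-0.23 ± 0.099, p = 0.0247, adjusted p = 0.981), the only gene of that list called there. In that comparison 4.53% of all genes were called (2.13% higher and 2.4% lower).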
